A study of Rattus norvegicus with 40 samples.

Results

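Transcripts of 10 genes for transporters of sugars, peptides and amino acids were followed in whole intestine and whole lung of Wistar rat embryos at gestational day 20 (E20) and day 16 (E16). A probe set (a group of short oligonucleotides on the array that reads 1 transcript) was taken as a member where the array annotation gave it the symbol of a listed gene alone. Of the 10 genes, 9 had a probe set, and 10 of the 31099 probe sets on the array were theirs, Slc1a1 having a pair. Slc6a19, the main sodium-coupled carrier of neutral amino acids at the intestinal brush border, was named by no probe set in the annotation used here and has no value below.

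The 4 groups were intestine at E20, intestine at E16, lung at E20 and lung at E16, with 10 arrays each, all untreated. Values are log2 of the deposited intensity, a scale on which 1 unit is a 2-fold difference. Embryos were delivered by caesarean section and dissected under a microscope, and tissue of several siblings was frozen, so whether an array holds 1 embryo is not settled. The tests rest on the spread over arrays, part of which may be technical, and litter is not recorded in the labels. Intestinal RNA was labelled from 1 µg and lung RNA from 2 µg, and this difference in input cannot be told apart from that of tissue. The tissue labels matched their markers: the mean of 6 intestinal epithelium markers lay between 12.16 and 12.56 in intestine at E20 and between 7.11 and 8.64 in intestine at E16, against 6.17 to 6.59 in lung at E20 and 6.42 to 6.77 in lung at E16. The mean of 6 lung epithelium markers was 6.48 to 6.88 in intestine at E20 and 6.36 to 6.88 in intestine at E16, against 12.05 to 12.80 in lung at E20 and 8.26 to 8.85 in lung at E16. In an earlier account of these data, 7 arrays were named for liver, pancreas or mesothelium transcripts; leaving them out kept the number of transporters called higher in each tissue with age at 6 and 2.

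An enterocyte absorbs nutrients with carriers on 2 faces. On the brush border facing the gut lumen, Slc5a1 (SGLT1) pulls in glucose and galactose with sodium, Slc2a5 (GLUT5) lets in fructose, Slc15a1 (PEPT1) takes di- and tripeptides with protons, Slc6a19 takes neutral amino acids, Slc1a1 (EAAT3) takes glutamate and aspartate, and the pair Slc7a9 with Slc3a1 takes cystine and cationic amino acids in exchange for neutral ones. On the basolateral face toward the blood, Slc2a2 (GLUT2) lets hexoses out, and Slc7a7, joined to the heavy chain Slc3a2, passes cationic amino acids out in exchange for neutral ones with sodium. Slc2a1 (GLUT1) is a glucose carrier of most growing tissues and of red cells.

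In the intestine, 6 of the 9 measured transporters rose between E16 and E20 and none fell. A gene was called where the limma adjusted p was under 0.05 over all 14217 genes and the fold was at least 2; by that rule 8.79% of all genes were called higher and 6.26% lower. The median difference of the 9 transporters was 1.46 log2 units, against -0.09 for all genes. Slc7a9 (5.98), Slc2a2 (5.38), Slc15a1 (5.36) and Slc7a7 (4.34) rose by over 4 log2 units, and Slc1a1 (1.46) and Slc3a1 (1.17) by less. Without a fold minimum Slc5a1 (0.91) and Slc2a1 (0.29) also counted as higher, and Slc2a5 (-0.88) as lower. By that rule 4195 of all 14217 genes were higher in intestine and 5964 lower. In the lung 2 of the 9 rose, Slc1a1 (2.99) and Slc7a7 (2.57), and none fell at any fold; of all genes 7.15% were called higher there and 4.63% lower. The median lung difference was 0.21, against -0.01 for all genes. The arrays of the ages did not overlap for 7 of the 9 in intestine, the 6 called and Slc5a1, and for the 2 called in lung, all higher at E20. Of all genes, 17.3% were wholly higher and 20.3% wholly lower at E20 in intestine, and 15.2% and 15.9% in lung. Both comparisons are set out in the plots by array and by age difference.

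**Figure D1:**
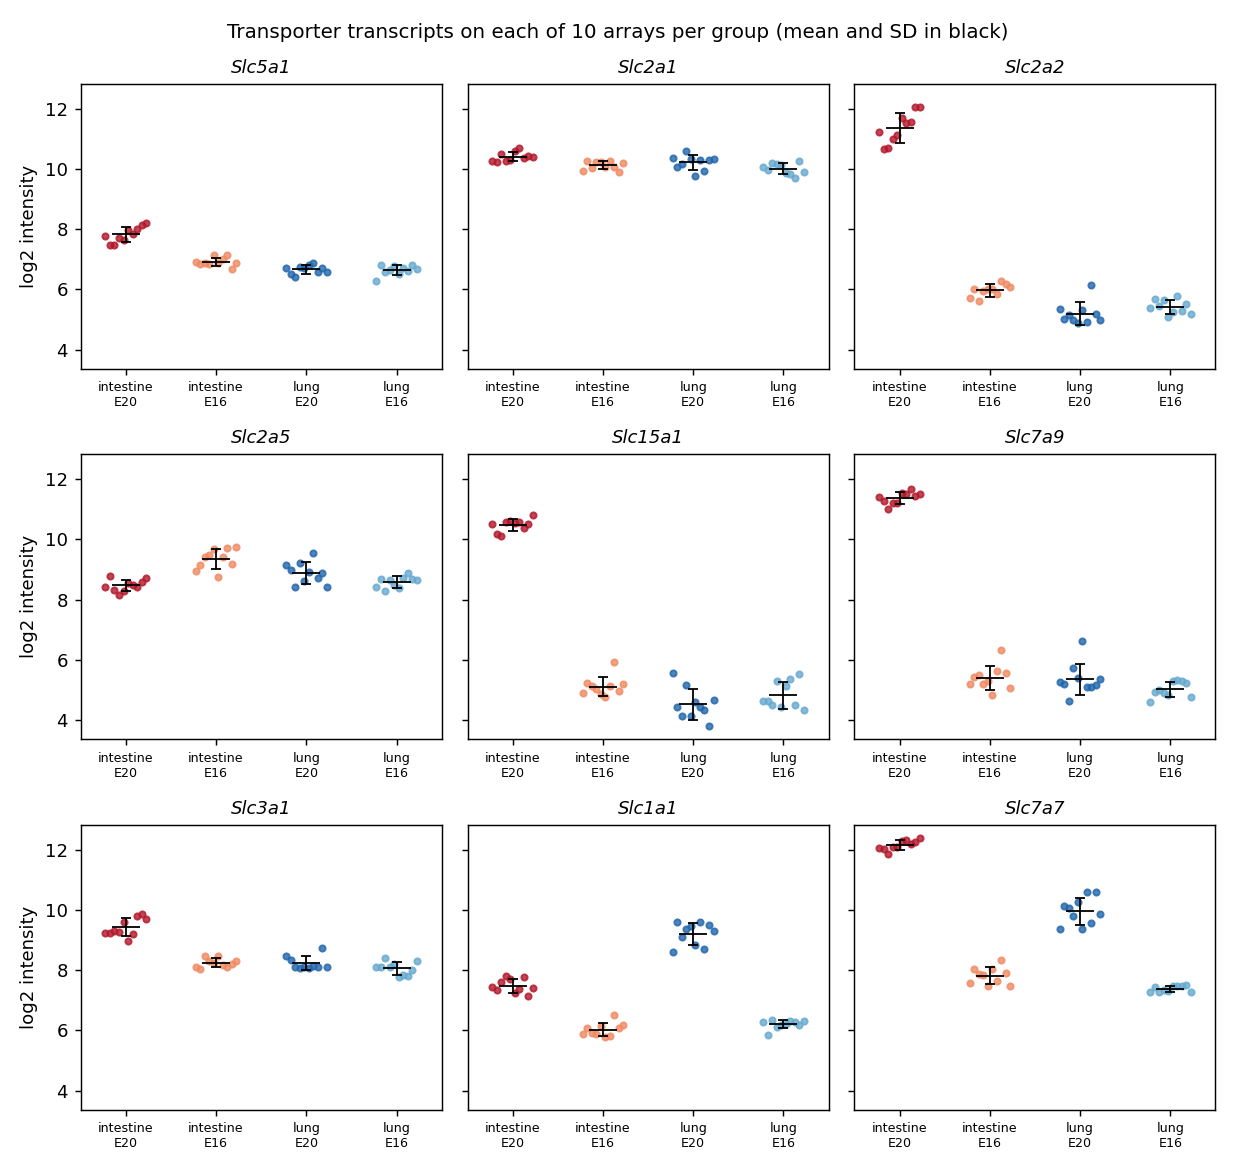
Log2 intensity of the 9 measured transporters on every array, with a panel for each gene and, left to right, intestine at E20, intestine at E16, lung at E20 and lung at E16; points are arrays, black bars the mean and SD of 10 arrays. Slc2a2, Slc15a1 and Slc7a9 stand above 10 in intestine at E20 and below 7 in the other 3 groups, whereas Slc1a1 is highest in lung at E20.

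**Figure D2:**
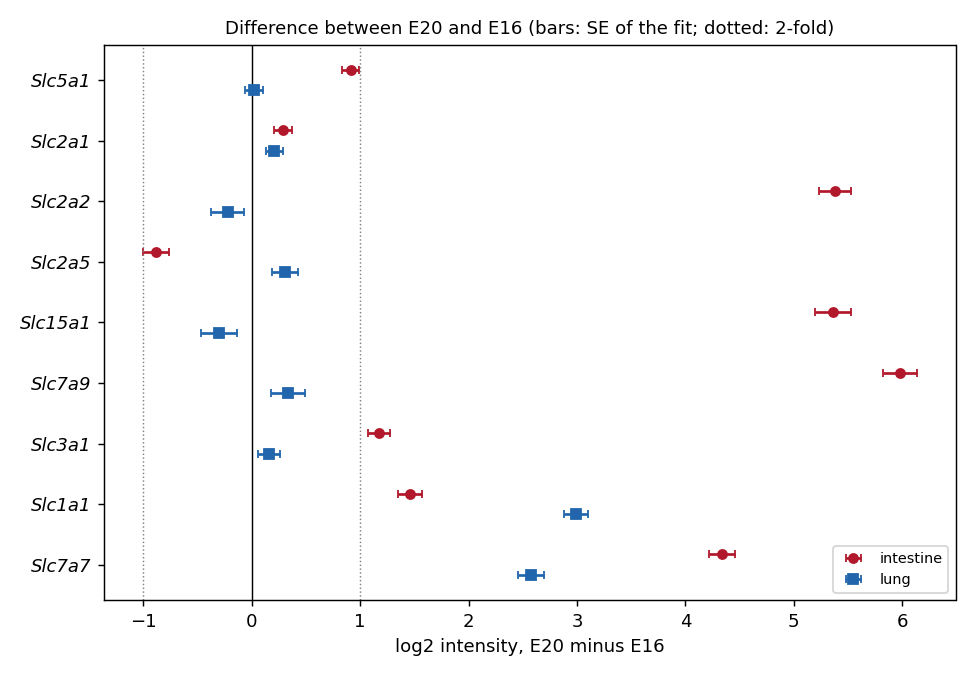
Log2 difference between E20 and E16 for each transporter in intestine (circles) and lung (squares), with the SE of the limma fit as bars and a 2-fold difference as dotted lines. Intestinal differences reach 5.98 (Slc7a9), while the lung differences past 1 are those of Slc1a1 (2.99) and Slc7a7 (2.57).

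Of the sugar carriers, Slc2a2 (probe set 1387228_at) changed most. Its log2 intensity in intestine ran from 10.65 (lowest array) over a median of 11.36 to 12.06 (highest) at E20, against 5.60, 6.01 and 6.29 at E16. In lung its lowest, median and highest values were 4.89, 5.09 and 6.15 at E20, against 5.07, 5.41 and 5.78 at E16. The intestinal arrays of E20 thus lay wholly above all other arrays, while the other groups overlapped with their neighbours in order of level. The intestinal rise was 5.38 (SE 0.15, 41.7-fold, limma adjusted p = 2.53e-30), and the lung difference was -0.22 (SE 0.15, limma adjusted p = 0.19). The change in intestine minus that in lung, the order used throughout, was 5.61 (SE 0.21, limma adjusted p = 4.51e-25). Slc2a2 also serves liver cells and insulin-producing cells. The mean of 8 liver markers was 7.76 to 9.02 in intestine at E20 against 6.75 to 8.76 at E16, with 2 of 8 called higher. The mean of 5 islet markers was 7.15 to 7.51 in intestine at E20 against 7.23 to 7.73 at E16, with none called. The part of liver RNA in the intestinal rise was not tested beyond leaving out arrays: without the 7 arrays named for other tissues the rise was 5.39.

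Slc5a1 (1369759_at), the sodium-glucose carrier, differed far less on its dim probe set. Its mean in intestine at E20 (7.83) lay under the median of all log2 values (7.89). Its means in the other groups (6.64 to 6.92) lay just above the lower quartile (6.59), so the size of its folds may depend on the array background. Its lowest, median and highest values were 7.47, 7.81 and 8.21 in intestine at E20, against 6.68, 6.87 and 7.15 in intestine at E16. In lung they were 6.43, 6.70 and 6.88 at E20, against 6.27, 6.67 and 6.82 at E16. No intestinal array of E20 overlapped with any other group, yet the age difference of 0.91 (SE 0.081, 95% interval 0.75 to 1.07, 1.88-fold, limma adjusted p = 2.77e-13) stayed under 2-fold and was not called. It passed with quantile normalization, at 1.00. In lung the difference was 0.02 (95% interval -0.14 to 0.18, limma adjusted p = 0.83). The change in intestine exceeded that in lung by 0.89 (SE 0.11, limma adjusted p = 6.70e-09), also under 2-fold; it passed with quantile normalization (1.01) and with arrays centred on the median (1.02).

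Slc2a5 (1368460_at), the fructose carrier, which in rats is known to stay low until weaning, pointed the other way in intestine. Lowest, median and highest values in intestine were 8.15, 8.46 and 8.77 at E20, against 8.75, 9.41 and 9.76 at E16. In lung they were 8.42, 8.90 and 9.56 at E20, against 8.29, 8.65 and 8.89 at E16. The intestinal groups overlapped only at their edges, and their difference was -0.88 (SE 0.12, limma adjusted p = 1.99e-08), under 2-fold. The lung difference was 0.31 (SE 0.12, limma adjusted p = 0.025). The 2 changes differed by -1.19 (SE 0.17, limma adjusted p = 7.95e-08), which did not pass when tested against a 2-fold change (limma adjusted p = 0.96).

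Slc2a1 (1370848_at) was nearly level. It measured 10.23, 10.38 and 10.69 (lowest, median, highest) in intestine at E20, against 9.91, 10.13 and 10.27 at E16. Lung gave 9.75, 10.29 and 10.60 at E20, against 9.69, 10.01 and 10.26 at E16. All neighbouring groups overlapped. The age differences were 0.29 (95% interval 0.12 to 0.45) in intestine and 0.21 (95% interval 0.04 to 0.37) in lung, and they differed by 0.08 (95% interval -0.15 to 0.31). Red cell transcripts, another source of this carrier, fell over the same days: 7 of 8 erythroid markers were called lower in intestine, with list means of 8.52 to 9.58 at E20 against 12.03 to 13.05 at E16. In lung 3 of 8 were lower, with list means of 9.82 to 10.90 at E20 against 11.75 to 12.32 at E16. Their part in the Slc2a1 values was not tested.

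The peptide carrier Slc15a1 (1369381_a_at) was dim in every group but the intestine of E20. It measured 10.13, 10.52 and 10.80 (lowest, median, highest) in intestine at E20, against 4.76, 5.09 and 5.93 at E16. In lung it measured 3.80, 4.44 and 5.55 at E20, against 4.32, 4.62 and 5.53 at E16. The E20 intestine stood clear of the 3 other groups, which overlapped with each other. The rise was 5.36 (SE 0.17, 41.2-fold, limma adjusted p = 1.47e-28) in intestine, against a lung difference of -0.30 (SE 0.17, limma adjusted p = 0.10), and the changes differed by 5.67 (SE 0.24, limma adjusted p = 1.30e-23). At E16 the group means of Slc2a2, Slc15a1, Slc7a9 and Slc1a1 in both tissues lay under the lower quartile of all log2 values (6.59), and no detection calls were used, so the size of their folds depends on the array background.

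Slc7a9 (1368727_at), the light subunit that carries cystine and cationic amino acids, had the largest rise among the members. Its lowest, median and highest values in intestine were 11.01, 11.43 and 11.65 at E20, against 4.84, 5.35 and 6.33 at E16. Those in lung were 4.65, 5.22 and 6.61 at E20, against 4.60, 4.98 and 5.32 at E16. Again the E20 intestine alone stood apart. The intestinal rise was 5.98 (SE 0.16, 63-fold, limma adjusted p = 3.61e-31) and the lung difference 0.34 (SE 0.16, limma adjusted p = 0.057). The changes differed by 5.64 (SE 0.22, limma adjusted p = 2.00e-24).

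Slc3a1 (1368440_at), the heavy subunit that brings Slc7a9 to the membrane, moved much less than its partner. It measured 8.97, 9.28 and 9.87 (lowest, median, highest) in intestine at E20, against 8.04, 8.22 and 8.48 at E16. In lung the values were 8.05, 8.11 and 8.75 at E20, against 7.79, 8.10 and 8.41 at E16. The intestinal ages did not overlap, and the lung ages did. The intestinal rise was 1.17 (SE 0.10, 2.26-fold, limma adjusted p = 7.75e-14), which did not pass a test against a 2-fold change (limma adjusted p = 0.37), and the lung difference was 0.16 (SE 0.10, limma adjusted p = 0.15). The changes differed by 1.01 (SE 0.14, limma adjusted p = 4.06e-08); leaving out any 1 of 15 arrays brought this to between 0.96 and 0.9998, under 2-fold. It also lost its call with array weights (0.94), with 64 added to each intensity (0.90), without the 7 arrays named for other tissues (0.97) and in the test against a 2-fold change.

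Promoter sequences from RefSeq (assembly GRCr8, 250 bases before to 50 after the annotated start) were matched for 9 of the 10 genes, and 4 are shown. Those of Slc2a2, Slc15a1 and Slc7a9 are shown because their transcripts rose together in intestine, and that of Slc2a1 because its transcript was nearly level. Capitals mark matches, on either strand, to the short motifs that follow. The GC box was searched as GGGCGG. The TATA box was searched as TATAAA. The CDX-type site was searched as TTTATG, and the GATA site as AGATAA. All are written 5′ to 3′ along the gene's strand.
Slc2a2, chr2:113540120-113540419, plus strand: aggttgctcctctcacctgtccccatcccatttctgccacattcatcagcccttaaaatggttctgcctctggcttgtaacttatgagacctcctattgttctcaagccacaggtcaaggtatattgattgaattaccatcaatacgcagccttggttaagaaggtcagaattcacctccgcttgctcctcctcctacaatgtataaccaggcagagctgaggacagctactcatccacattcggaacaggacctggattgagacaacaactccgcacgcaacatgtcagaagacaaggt
Slc15a1, chr15:104949295-104949594, minus strand: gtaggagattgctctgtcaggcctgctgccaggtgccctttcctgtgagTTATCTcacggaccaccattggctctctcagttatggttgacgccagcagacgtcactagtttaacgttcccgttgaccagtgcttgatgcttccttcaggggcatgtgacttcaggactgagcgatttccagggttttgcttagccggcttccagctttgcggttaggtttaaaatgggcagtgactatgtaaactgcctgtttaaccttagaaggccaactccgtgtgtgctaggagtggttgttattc
Slc7a9, chr1:97246632-97246931, plus strand: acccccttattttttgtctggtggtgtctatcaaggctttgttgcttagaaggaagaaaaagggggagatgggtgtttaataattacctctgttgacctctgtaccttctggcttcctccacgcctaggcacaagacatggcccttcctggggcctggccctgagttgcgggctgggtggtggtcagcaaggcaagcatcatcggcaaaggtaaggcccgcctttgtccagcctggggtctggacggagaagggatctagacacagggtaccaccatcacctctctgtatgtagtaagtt
Slc2a1, chr5:138002272-138002571, plus strand: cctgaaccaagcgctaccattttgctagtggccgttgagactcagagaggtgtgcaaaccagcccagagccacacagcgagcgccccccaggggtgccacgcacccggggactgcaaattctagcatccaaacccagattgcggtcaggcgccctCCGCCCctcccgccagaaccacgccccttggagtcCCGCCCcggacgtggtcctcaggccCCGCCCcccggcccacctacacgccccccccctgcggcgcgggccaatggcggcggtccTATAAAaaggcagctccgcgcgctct

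The Slc2a1 window held 3 GC boxes, at -95, -60 and -35 from the start, and a TATA box at 25, and its GC content was 68.3%, against a median of 51.7% over all promoters. The 3 windows of genes that rose were at 47.7% (Slc2a2), 50.7% (Slc15a1) and 53.0% (Slc7a9). The only match in these 3 was a GATA site of Slc15a1 at -201. Of 33469 promoters of the same length, 33.1% held a GC box, 14.2% a TATA box, 12.7% a CDX-type site and 11.6% a GATA site. Among the 9 matched windows these were found in 1, 3, 0 and 2, and the windows of Slc3a1 and Slc6a19 held the other TATA boxes. A match or its lack describes these letters and nothing more.

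Slc7a7 (1387808_at), the basolateral exit for cationic amino acids, rose in both tissues. Its lowest, median and highest values in intestine were 11.84, 12.13 and 12.40 at E20, against 7.46, 7.84 and 8.32 at E16. Lung measured 9.35, 9.96 and 10.61 at E20, against 7.27, 7.39 and 7.52 at E16. Neither tissue's ages overlapped, and at E20 intestine and lung were also apart. The rises were 4.34 (SE 0.12, 20.2-fold, limma adjusted p = 3.37e-30) in intestine and 2.57 (SE 0.12, 5.96-fold, limma adjusted p = 8.41e-22) in lung. They differed by 1.76 (SE 0.17, limma adjusted p = 6.28e-12). Slc7a7 is also a macrophage transcript. The mean of 9 macrophage markers was 8.92 to 9.24 in intestine at E20 against 8.17 to 8.86 at E16, with 2 called higher. In lung it was 9.49 to 9.91 at E20 against 8.44 to 8.85 at E16, with 3 called higher, and the part of macrophage RNA in the rises was not tested.

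Slc3a2, the heavy chain that Slc7a7 needs, rose in intestine by 1.13 (SE 0.08, limma adjusted p = 5.3e-16), with means of 12.29 at E20 and 11.16 at E16. In lung its difference was 0.33 (SE 0.08), under 2-fold. In both heteromers the light subunit (Slc7a9 at 5.98, Slc7a7 at 4.34) thus had a larger intestinal difference than its heavy chain (Slc3a1 at 1.17, Slc3a2 at 1.13), a contrast between genes for which no test was run. These differences started from unlike intensities. The intestinal means at E16 were 5.40 for Slc7a9 against 8.24 for Slc3a1, and 7.82 for Slc7a7 against 11.16 for Slc3a2.

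Slc1a1, the glutamate and aspartate carrier, was called higher in both tissues and rose more in lung. On probe set 1370367_at its lowest, median and highest values in intestine were 7.13, 7.43 and 7.80 at E20, against 5.78, 5.99 and 6.50 at E16. In lung they were 8.60, 9.32 and 9.61 at E20, against 5.85, 6.25 and 6.34 at E16. The order of levels was lung at E20, intestine at E20, then the overlapping groups of E16. The rises were 1.46 (SE 0.11, 2.76-fold, limma adjusted p = 2.83e-15) in intestine and 2.99 (SE 0.11, 7.94-fold, limma adjusted p = 3.20e-25) in lung, and they differed by -1.53 (SE 0.16, limma adjusted p = 2.90e-11). A second probe set, 1387932_at, gave 1.59 (SE 0.11) in intestine, 2.71 (SE 0.11) in lung and -1.12 (SE 0.16) for their difference, all called. With 64 added to each intensity before the log, the intestinal rise was 0.91 and lost its call.

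Between the tissues at E16 none of the 9 transporters was called, where 3% of all genes were called higher in intestine and 2.13% lower. For none of the 9 did the arrays of the tissues stay apart at E16, as they did for 11% of all genes with intestine higher and 8.23% with intestine lower. At a limma adjusted p under 0.05 with no fold minimum, 5 transporters were higher in intestine. By that rule 5721 of all 14217 genes were higher in intestine and 3388 lower. The 5 were Slc2a5 (0.77), Slc2a2 (0.55), Slc7a7 (0.43), Slc7a9 (0.38) and Slc5a1 (0.27). At E20, 6 were called higher in intestine than in lung and 1 lower, against 8.21% and 7.91% of all genes. Those higher were Slc2a2 (6.16), Slc7a9 (6.02), Slc15a1 (5.95), Slc7a7 (2.19), Slc3a1 (1.19) and Slc5a1 (1.16), and Slc1a1 was lower (-1.72). For these 7 the arrays of intestine and lung did not overlap at E20; of all genes, 18.6% had every intestinal array above every lung array there and 15.5% every one below. Tested against a 2-fold change, Slc5a1 and Slc3a1 no longer passed there (limma adjusted p = 0.20 and 0.25), and with 64 added to each intensity Slc5a1 stood at 0.82 and lost its call. In the test of whether the age changes themselves differ, 5 transporters changed more upward in intestine and 2 more upward in lung, Slc2a5 and Slc1a1, against 8.48% and 9.13% of all genes. The 5 were Slc2a2, Slc15a1, Slc7a9, Slc7a7 and Slc3a1. These comparisons share groups, so their calls are not independent of each other.

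Epithelial transcripts as a whole rose over the same days. All 9 measured general epithelium markers were called higher in intestine, among them Epcam (4.61) and Cdh1 (4.26), with list means of 12.00 to 12.34 at E20 against 8.44 to 9.24 at E16. In lung 8 of 9 were called higher, with list means of 10.72 to 11.13 at E20 against 8.89 to 9.38 at E16. The list mean moved by 3.31 in intestine and by 1.74 in lung. In whole tissue, more epithelial cells and more RNA of a gene per cell cannot be told apart.

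The transporters were therefore also taken relative to the mean of these markers on each array, an alternative chosen after seeing the data. On that scale 4 were called higher in intestine and 5 lower. It takes 3.31 from every intestinal age difference and 1.74 from every lung one. A gene that is level with age thus falls past 2-fold lower in both tissues. Before subtraction the median of all genes was -0.09 in intestine and -0.01 in lung. The share of all genes called on that scale was not counted. Slc7a9 (2.67, SE 0.17), Slc2a2 (2.08, SE 0.16), Slc15a1 (2.06, SE 0.18) and Slc7a7 (1.03, SE 0.11) were higher at E20. Slc1a1 (-1.84), Slc3a1 (-2.13), Slc5a1 (-2.40), Slc2a1 (-3.02) and Slc2a5 (-4.19) were lower, that is, they gained less than the markers or lost. The direction of Slc1a1 and Slc3a1, which had risen in plain log2 intensity, was thus reversed. In lung Slc1a1 alone was called higher (1.25, SE 0.12) and 7 were called lower, while Slc7a7 stood at 0.83, under 2-fold. For Slc7a7 the difference between the age changes was 0.20 on that scale (SE 0.16, limma adjusted p = 0.22). Its difference between intestine and lung at E20 was 0.98, and both lost their calls.

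**Figure D3:**
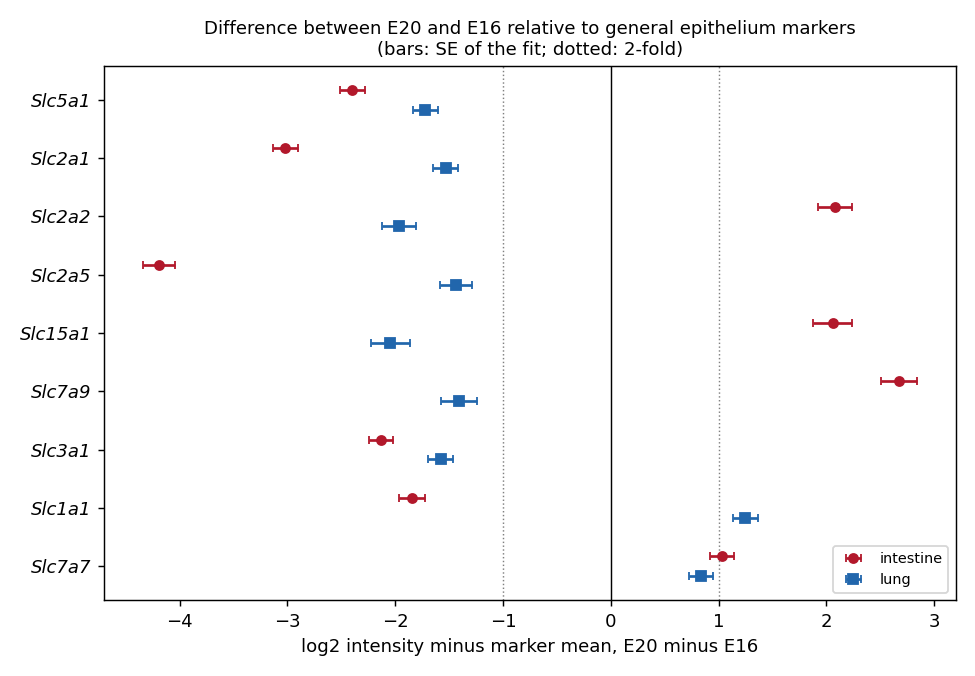
Log2 difference between E20 and E16 after subtracting each array's mean of 9 general epithelium markers, in intestine (circles) and lung (squares), with the SE of the fit as bars and a 2-fold difference as dotted lines. In intestine Slc2a2, Slc15a1, Slc7a9 and Slc7a7 lie to the right of 1 and the other 5 transporters to the left of -1.

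Single arrays stood out within groups. Intestine E16 replicate 8 had the highest value of its group for 5 of the 9 transporters: Slc2a2 (6.29), Slc15a1 (5.93), Slc7a9 (6.33), Slc1a1 (6.50) and Slc7a7 (8.32). It also had the highest mean of general epithelium markers (9.236, with replicate 6 next at 9.225) and of exocrine pancreas markers (8.14, against a group median of 6.61). The mean of intestinal epithelium markers was highest in replicate 6 (8.642, against 8.149 in replicate 8). Replicate 8 led its group in lung epithelium (6.88) and kidney (7.03) marker means, but not in liver or islet means. It was highest too for some dim transcripts of the other lists, such as Slc7a13 (6.15, next 4.96) and Cltrn (6.17, next 5.07). Its median correlation with the arrays of its group was the lowest there (0.9711). Replicates 9 and 6 of that group were also high in pancreas markers (7.975 and 7.86), yet replicate 6 had the lowest Slc15a1 (4.76), Slc7a9 (4.84) and Slc1a1 (5.78) of the group. Lung E20 replicate 8 had the highest Slc2a2 of its group (6.15, next 5.34) and the highest mean of liver markers (8.57, against a group median of 6.56). Lung E20 replicate 1 had nearly the same liver mean (8.53), with Slc2a2 at 5.34. What these co-occurrences contribute was not tested.

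Of 51 other measured transporters of sugars, peptides and amino acids, most were not called with age. The 13 sugar carriers had 3 called higher and none lower in intestine (median 0.23), and none higher and 1 lower in lung (median 0.17). Of all genes, 8.79% were called higher and 6.26% lower in intestine, and 7.15% and 4.63% in lung. At a limma adjusted p under 0.05 with no fold minimum, 7 were higher and 5 lower in intestine, and 6 higher and 3 lower in lung. By that rule 4195 of all 14217 genes were higher and 5964 lower in intestine, and 4692 and 4786 in lung. Slc5a11, a sodium-coupled inositol carrier, rose by 5.22 (SE 0.12) in intestine, with means of 10.83 at E20 and 5.61 at E16, and differed by 0.17 in lung. Slc37a4, which moves glucose-6-phosphate into the endoplasmic reticulum, rose by 2.21 and the intracellular hexose carrier Slc2a8 by 1.38 in intestine. Slc5a3, another inositol carrier, fell in lung by 1.61 and differed by 0.25 in intestine; its dimmest probe set gave 0.10 in lung.

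Among 3 other peptide transporters, Slc15a2 (PEPT2), a high-affinity relative of Slc15a1, rose in lung by 1.69 (SE 0.09), with means of 8.81 at E20 and 7.13 at E16, and differed by 0.18 in intestine. The changes of Slc15a2 differed by -1.51 between intestine and lung, the opposite sign to the 5.67 of Slc15a1. No other peptide transporter was called in either tissue, though with limma and no fold minimum 2 of the 3 were lower in intestine and 2 higher in lung. By that rule 5964 of all 14217 genes were lower in intestine and 4692 higher in lung.

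The 35 other amino acid carriers had 7 called higher and 3 lower in intestine, where 8.79% and 6.26% of all genes were called, with a median of -0.04, against -0.09 for all genes. Slc7a8, a basolateral carrier of neutral amino acids that also pairs with Slc3a2, rose by 4.13 (SE 0.09) in intestine, with means of 11.34 at E20 and 7.21 at E16. The neutral amino acid uniporter Slc43a2 rose by 3.41, the orphan family member Slc38a6 by 2.97, the taurine carrier Slc6a6 by 1.65 and the lysosomal Slc38a9 by 1.59. The glial-type glutamate carrier Slc1a3 fell by 2.82 in intestine, opposite in sign to Slc1a1, and Slc38a4 fell by 1.07; the third was the glycine carrier Slc6a9, named here after its values were seen. Slc16a10, a basolateral carrier of aromatic amino acids, differed by 0.01 in intestine and by -0.16 in lung.

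In lung 3 of the 35 rose and 2 fell, with a median of -0.01, where 7.15% of all genes were called higher and 4.63% lower. Slc6a14, a broad carrier of neutral and cationic amino acids, rose by 5.56 (SE 0.19), with means of 9.91 at E20 and 4.35 at E16, and differed by 0.10 in intestine. Its E16 level was below the lower quartile of all values, so the size of this rise depends on the array background. The glutamine carrier Slc38a5 rose by 1.96 and Slc43a2 by 1.05, while Slc7a5 fell by 1.23 and Slc38a4 fell by 1.10.

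**Figure D4:**
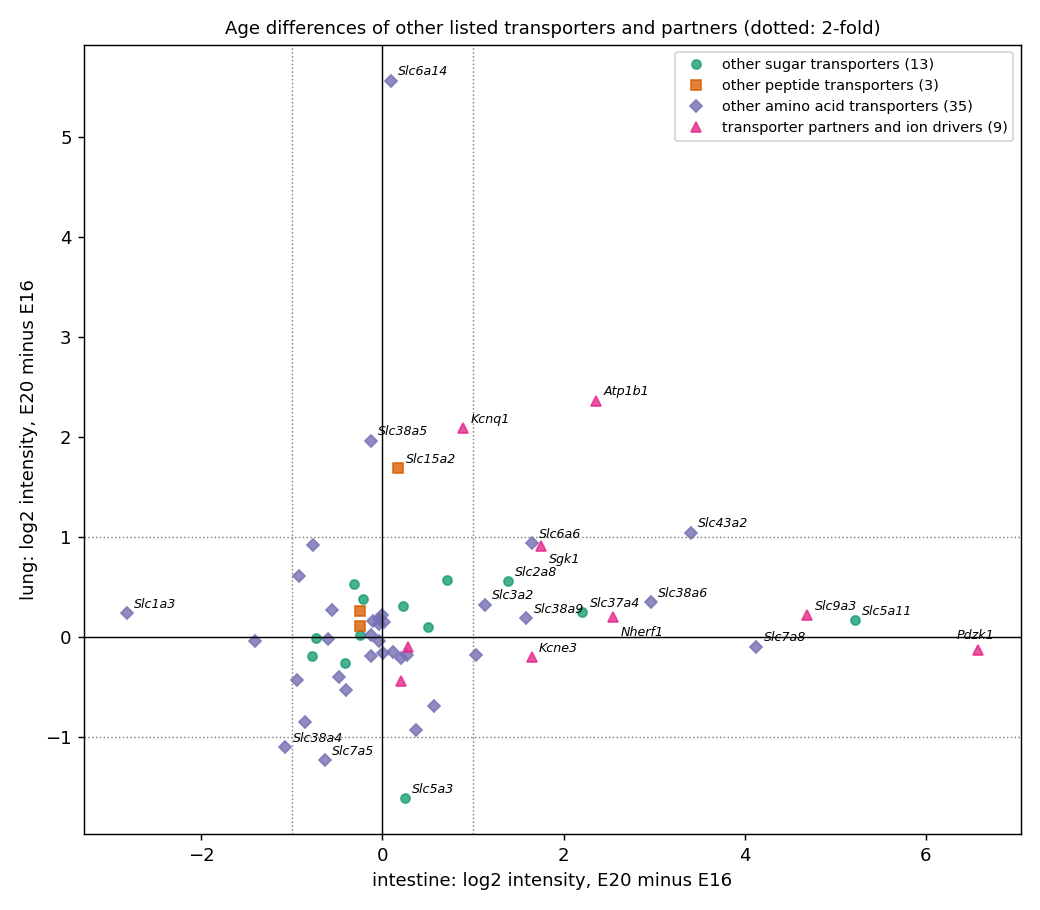
Log2 difference between E20 and E16 in intestine (horizontal) and lung (vertical) for 13 other sugar, 3 other peptide and 35 other amino acid transporters and 9 partners and ion drivers, with dotted lines at 2-fold. Pdzk1, Slc5a11, Slc9a3 and Slc7a8 lie far to the right near 0 in lung, and Slc6a14 lies at 5.56 in lung near 0 in intestine.

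Of 9 scaffolds, partners and ion drivers of these carriers, 6 rose in intestine and 2 in lung, with medians of 1.76 and 0.20. With limma none fell in either tissue at any fold. Among all genes 8.79% were called higher in intestine and 7.15% in lung, and 6.26% and 4.63% lower. Pdzk1, a brush border scaffold, rose in intestine by 6.58 (SE 0.10), with means of 12.04 at E20 and 5.47 at E16. The sodium-proton exchanger Slc9a3, which restores the proton gradient that drives Slc15a1, rose by 4.69 (SE 0.11). The scaffold Nherf1 rose by 2.55, the kinase Sgk1 by 1.75 and the potassium channel subunit Kcne3 by 1.65, although the dimmest Kcne3 probe set gave -0.27. Atp1b1, a subunit of the sodium pump, rose by 2.36 in both intestine and lung, and Kcnq1 rose by 2.09 in lung. Cltrn, a partner of Slc6a19 in kidney, differed by 0.20 in intestine and by -0.43 in lung.

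Enzymes that handle the sugars after entry, listed with the glucose-responsive Txnip, also changed in intestine, where 4 of 8 rose and none fell (median 0.88), against 1 of 8 that rose in lung (median 0.22). Among all genes 8.79% were called higher in intestine and 7.15% in lung, and 6.26% and 4.63% lower. With limma and no fold minimum 2 of the 8 were lower in each tissue, against 5964 of all 14217 genes in intestine and 4786 in lung. Khk, which phosphorylates fructose, rose by 1.22 (SE 0.04), and Tkfc, which acts further down the fructose route, by 2.98. Glycerate kinase Glyctk rose by 3.09 and the gluconeogenic Fbp1 by 3.02. The fructose carrier Slc2a5 itself stood at -0.88 in the same arrays. Txnip, a regulator of glucose uptake, rose in lung by 1.55 and differed by -0.16 in intestine.

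Relative to the epithelium markers, the scale chosen after seeing the data, Pdzk1 (3.27), Slc5a11 (1.91) and Slc9a3 (1.39) were still called higher in intestine. Slc7a8 (0.82) and Slc43a2 (0.10) were positive but under 2-fold and lost their calls. The other carriers, partners and enzymes named above as rising there turned negative, having gained less than the markers. In lung Slc6a14 (3.82) was still called higher on that scale. Atp1b1 (0.62), Kcnq1 (0.35) and Slc38a5 (0.22) were positive but lost their calls, and Slc15a2, Slc43a2 and Txnip were negative.

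For each transporter the 3 genes of most similar level over the 40 arrays were taken among the 9772 genes above the median level, by Pearson's r, as a description of arrays that share tissue and age. Slc2a2 was followed most closely by Cideb (0.996), Cdhr5 (0.994) and Slc51a (0.993), and Slc15a1 by Aqp8 (0.991), Cdhr5 (0.991) and Creb3l3 (0.990). Slc7a9 was closest to Mamdc4 (0.992), Uap1l1 (0.992) and Apoa4 (0.991), and Slc7a7 to Elf3 (0.992), Gda (0.990) and Eps8l2 (0.988). Slc1a1 had other neighbours, Anxa8 (0.987), Ppl (0.985) and Ctsh (0.981). Slc5a1 was nearest to Garnl3 (0.965), Slc51a (0.960) and Nr1h4 (0.958), and Slc3a1 to Slc27a4 (0.940), Smim24 (0.936) and Slc26a6 (0.936). Slc2a5 was nearest to Harbi1 (0.953), Prrt4 (0.936) and Glis1 (0.932). The lowest values were those of Slc2a1, with Sorl1 (0.853), Naaa (0.818) and Btbd9 (0.814).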

How the data were processed

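The deposited table holds linear intensities for 31099 probe sets on 40 arrays, made by the authors with RMA per the submitters' processing notes, without a version. The sources used here do not say if intestine and lung arrays were normalized in 1 run. All 40 columns were used. Intensities ran from 6.65 to 39901, and array medians from 219.9 to 263.7. Since the planned test needed log2 values and the deposited intensities were linear, log2 was taken here first. Arrays have no sequencing depth, so their number limits the precision. Probe sets with 1 gene symbol (20832, against 436 with several and 9831 with none) were named by the platform annotation and updated through Entrez identifiers (20758 matched, GRCr8). Each gene took its probe set of highest mean, giving 14217 genes. A limma 3.58.1 fit (R 4.3.3) of the 4 group means gave 5 contrasts, two-sided, adjusted by Benjamini-Hochberg over all genes; SE comes from this fit. The code was tested on simulated data. Alternatives covered scaling, low values, probe sets, fold rule, array weights, arrays left out and replicate numbers as blocks. All members are named, and of each other list up to 6 called genes with the largest intestinal and up to 4 with the largest lung change, plus partners named whatever their value. Members and lists were chosen with earlier results of these data known. Some of those partners are not reported here.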

Additional observations from a re-analysis of the deposited data

Results flagged for a closer look

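Single arrays lay far from the rest of their group in 9 of 188 groups of 10 arrays examined, where chance flags about 1 in 20. Among the transporters these were Slc2a2 in lung E20 replicate 8 (6.15, next 5.34), Slc15a1 in intestine E16 replicate 8 (5.93, next 5.22), Slc7a9 in intestine E16 replicate 8 (6.33, next 5.63) and Slc1a1 in lung E16 replicate 2 (5.85, next 6.12). Among the other named genes they were Slc7a5 in lung E20 replicate 1 (8.65), Slc9a3 in intestine E16 replicate 8 (6.47), Atp1b1 in lung E16 replicate 9 (11.39), Khk in intestine E20 replicate 4 (9.17) and Foxa3 in intestine E16 replicate 6 (5.95).

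The change with age differed between intestine and lung, by limma's interaction term at adjusted p under 0.05 and at least 2-fold, for 7 of 9 transporters, 5 upward and 2 downward, against 8.48% and 9.13% of all genes. The change in intestine minus that in lung was 5.61 for Slc2a2, -1.19 for Slc2a5, 5.67 for Slc15a1, 5.64 for Slc7a9, 1.01 for Slc3a1, -1.53 for Slc1a1 and 1.76 for Slc7a7. It passed for 24 of 37 other named genes, most of which were named for a large change with age, so this count has no bearing on how common such differences are. Among sugar and peptide carriers the values were 5.05 for Slc5a11, 1.95 for Slc37a4, 1.86 for Slc5a3 and -1.51 for Slc15a2. Among amino acid carriers they were 4.22 for Slc7a8, 2.36 for Slc43a2, 2.62 for Slc38a6, -3.07 for Slc1a3, 1.40 for Slc38a9, -5.47 for Slc6a14 and -2.10 for Slc38a5. Partners and ion drivers gave 6.71 for Pdzk1, 4.47 for Slc9a3, 2.35 for Nherf1, 1.85 for Kcne3 and -1.20 for Kcnq1. Enzymes and Txnip gave 2.94 for Glyctk, 3.10 for Fbp1, 3.165 for Tkfc and -1.71 for Txnip. Regulators gave 4.35 for Cdx2, 4.05 for Hnf4a, 4.10 for Gata4 and 2.49 for Gata5.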

How the results depend on the processing

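Over 226 results and 16 settings, 3189 of 3558 recomputed values kept their direction and their side of the threshold (or, for counts, stayed within 1.5 times), 56 lost a call, 70 gained one, 98 changed sign and 145 counts moved further; of the 695 values of single transporters 637 held and 23 changed sign. Testing only genes above the median level left 4 of the 9 transporters, so 2 were called higher in intestine, 1 in lung, and 2 in intestine over lung at E20 (0 lower), and the age changes differed upward for 2 and downward for 1. With no fold minimum 1 transporter was lower in intestine, 4 were higher in lung, 5 were higher in intestine at E16 and 2 lower at E20. Counted the same way, 5964 of all 14217 genes were lower with age in intestine and 4692 higher in lung. Against lung, 5721 of all genes were higher in intestine at E16 and 4350 lower at E20. In the test against a 2-fold change 1 transporter had a change lower in intestine than in lung. The cause of the following changes of sign was not tested. Differences near 0 changed sign in lung for Slc5a1 (-0.010) with array weights, Slc5a1 (-0.059) with centred arrays, Slc5a1 (-0.010) and Pdzk1 (0.0042) with quantile normalization and Slc5a1 on leaving out 1 array (-0.021, without lung E16 replicate 1, to 0.047). In intestine they did for Slc16a10 with quantile normalization (-0.017), without 7 arrays (-0.038) and without 1 array (-0.083 to 0.091), and for Slc6a14 (-0.0027) with 64 added to each intensity. Between the tissues at E16 they did for Slc2a1 (-0.038) with centred arrays and Slc15a1 (-0.083) with quantile normalization. The difference between the age changes turned for Atp1b1 with centred arrays (0.12), with 64 added (0.0059), without 7 arrays (0.0015) and without 1 array (-0.10 to 0.035), for Slc2a1 without 7 arrays (-0.057) and for Slc38a4 without 1 array (-0.043 to 0.070). The dimmest probe set of a gene gave Slc5a3 (-0.015), Kcne3 (-0.27) and Gata4 (-0.22) in intestine, Slc5a3 (0.10), Glyctk (-0.11) and Gata4 (0.035) in lung and Slc5a3 (-0.12), Kcne3 (-0.069) and Gata4 (-0.25) for the difference; the mean of probe sets gave Glyctk (-0.15) in lung.

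The scale relative to the general epithelium markers, chosen after seeing the data, subtracts 3.31 from intestinal and 1.74 from lung age differences. The share of all genes called on it was not counted. Of the transporters, 5 were called lower in intestine, and 1 higher and 7 lower in lung. Between the tissues 1 was higher in intestine at E16, and 3 were higher and 3 lower at E20. For 3 the change was more upward in intestine. For Slc2a1 (-1.49), Slc2a5 (-2.76) and Slc1a1 (-3.09) it was called lower in intestine than in lung. Signs changed in intestine for Slc5a1 (-2.40), Slc2a1 (-3.02), Slc3a1 (-2.13), Slc1a1 (-1.84), Slc37a4 (-1.10), Slc2a8 (-1.92), Slc5a3 (-3.06), Slc15a2 (-3.13), Slc38a6 (-0.34), Slc6a6 (-1.66), Slc38a9 (-1.72), Slc6a14 (-3.21), Slc3a2 (-2.18), Slc16a10 (-3.30), Nherf1 (-0.76), Atp1b1 (-0.95), Sgk1 (-1.55), Kcne3 (-1.66), Kcnq1 (-2.41), Cltrn (-3.10), Glyctk (-0.22), Fbp1 (-0.28), Tkfc (-0.33), Khk (-2.08), Klf5 (-0.25), Gata5 (-1.44), Foxa3 (-2.13) and Klf4 (-2.38). They changed in lung for Slc5a1 (-1.72), Slc2a1 (-1.53), Slc2a5 (-1.43), Slc7a9 (-1.40), Slc3a1 (-1.58), Slc5a11 (-1.57), Slc37a4 (-1.49), Slc2a8 (-1.18), Slc15a2 (-0.054), Slc43a2 (-0.69), Slc38a6 (-1.39), Slc1a3 (-1.497), Slc6a6 (-0.80), Slc38a9 (-1.55), Slc3a2 (-1.41), Slc9a3 (-1.52), Nherf1 (-1.54), Sgk1 (-0.83), Glyctk (-1.59), Khk (-1.35), Txnip (-0.19), Hnf4a (-1.62), Foxa3 (-1.37) and Klf4 (-0.35). For the difference between the age changes they turned for Slc5a1 (-0.68), Slc2a1 (-1.49), Slc3a1 (-0.55), Slc2a8 (-0.75), Slc6a6 (-0.86), Slc38a9 (-0.17), Slc7a5 (-0.97), Slc38a4 (-1.54), Slc3a2 (-0.76), Slc16a10 (-1.41), Sgk1 (-0.72), Cltrn (-0.93), Khk (-0.73), Klf5 (-1.41) and Foxa3 (-0.76). Between the tissues they turned for Slc1a1 (0.16) at E16 and Slc5a1 (-0.054), Slc2a1 (-1.03) and Slc3a1 (-0.027) at E20.

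The labels number arrays 1 to 10 in each group without saying that a number marks a shared embryo or litter. Same-numbered intestine and lung arrays had residual correlations of -0.047 to 0.70 at E16, with 7 of 10 over 0.1 and 6 matching their own number best, and of -0.14 to 0.39 at E20, with 4 of 10 over 0.1 and 1 matching its own number best. The E16 values are a hint from the data that numbers may be shared there; since some pairs at each age were at or under 0.1, the arrays were not treated as pairs. With the replicate number as a block (correlation 0.11) the transporters called higher stayed at 6 in intestine and 2 in lung. The genes called for the difference between the age changes of the tissues numbered 2506, against 2503 without the block. For intestine against lung at E16 they numbered 730 with and without the block. No detection calls were used, so how far dim values lie above background is unknown. Group means under the lower quartile of all log2 values (6.59) include those of Slc15a1, Slc7a9 and Slc2a2 outside the E20 intestine and of Slc1a1 at E16. They also include those of Slc6a14 outside the E20 lung (4.35 to 4.51), of Slc5a11, Pdzk1 and Slc9a3 outside the E20 intestine and of Cltrn in every group (3.73 to 4.53).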

Other observations

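Listed epithelial regulators, not all of them particular to intestine, changed with age as well. Against lung, 2 of the 12 were called higher in intestine at E16 and 3 lower, where 3% and 2.13% of all genes were. At E20 it was 6 higher and 1 lower, against 8.21% and 7.91% of all genes. Of 12 measured, 7 rose in intestine and none fell (median 1.15, against -0.09 for all genes), and 2 rose in lung and none fell (median 0.09). Among all genes 8.79% were called higher and 6.26% lower in intestine, and 7.15% and 4.63% in lung. With limma and no fold minimum 11 were higher and 0 lower in intestine, and 4 higher and 3 lower in lung. By that rule 4195 of all 14217 genes were higher and 5964 lower in intestine, and 4692 and 4786 in lung. The homeobox factor Cdx2 rose in intestine by 4.31 (SE 0.12), with means of 12.12 at E20 and 7.81 at E16, and differed by -0.04 in lung. The nuclear receptor Hnf4a rose by 4.17 (SE 0.14), with means of 12.10 at E20 and 7.93 at E16. Gata4 rose by 3.37, Klf5 by 3.05, Gata5 by 1.87 and Foxa3 by 1.18. Klf5 rose by 2.89 in lung too, where Klf4 rose by 1.39. For Gata4 the dimmest probe set gave -0.22 in intestine. Relative to the general epithelium markers Cdx2 stood at 1.00 in intestine, while Hnf4a (0.86) and Gata4 (0.06) lost their calls.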
